A study of Mus musculus with 8 samples.

Results

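The claudins and their partners at the tight junction were examined in the cortex of mouse kidneys with and without Sav1. All rows of the deposited table whose symbol begins with Cldn and a digit were taken (26 genes), together with 16 listed genes for other membrane, plaque and polarity proteins of the junction, 42 of 21705 rows in all. Poly(A) RNA had been sequenced from 4 libraries labelled Sav1+/+ that received vehicle (wild-type) and from 4 labelled Sav1-/- that received tamoxifen (Sav1-null). Both groups were kidney cortex of mixed background strain. The labels name neither the driver of the deletion nor the cells it reaches, and ages, sexes and the time after tamoxifen were not given in the sources used here. Sav1 encodes salvador, the scaffold of the Hippo pathway kinases. Nothing in the labels says whether each library is its own animal, and p-values therefore reflect the spread among these 8 libraries, which may be technical.

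Tight junctions seal the space between neighbouring epithelial cells below their apical surface. Claudins are small proteins that span the membrane several times and join across that space, and the claudin a cell makes decides whether the paracellular path is a barrier or a pore for cations, anions or water. Each nephron segment has its own set: the leaky proximal tubule carries pore-forming claudins, the thick ascending limb carries those that pass calcium and magnesium, and the tight distal nephron and collecting duct carry sealing ones. Occludin and the junctional adhesion molecules lie beside the claudins in the membrane, while ZO proteins, cingulin and the PAR and PATJ complexes form the plaque beneath.

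Sav1 itself was at 1504, 1743, 959 and 1193 in the wild-type libraries (replicates 1 to 4 in this order throughout) and at 983, 914, 982 and 714 in the Sav1-null libraries. The log2 fold change was -0.56 ± 0.19 (SE), with a limma adjusted p of 0.0220, and one wild-type library lay within the Sav1-null range. Xist, transcribed from the inactive X chromosome of female cells, was at 0 in 3 wild-type libraries and at 0.989, about the value of 1 read, in replicate 2, and stood at 9280 to 16095 in the Sav1-null libraries. Kdm5d, Uty, Ddx3y and Eif2s3y of the Y chromosome, chosen after their values were seen as Xist was, lay at 326 to 1284 in the wild-type libraries and at 0 in every Sav1-null library. Genotype, tamoxifen and these sex-linked transcripts separated the same libraries, and their parts in any result below cannot be told apart. Values are in the deposited unit, in which the upper quartile of each library's values above 0 is about 1000, and depth was about 20534930 to 24962874 reads in the wild-type and 15741635 to 20859281 in the Sav1-null libraries. Sav1-null replicate 4 stood apart: pairs of Sav1-null libraries that include it differed by a chi-square per degree of freedom of 62.6 to 114, against 12.9 to 32.2 for all other pairs within a group.

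Promoter sequences are shown for some claudins of high level or large fold change, to set what lies at their start sites beside their values. The choice is not complete: Cldn1, Cldn3 and Cldn18 also had large fold changes, hold no GGAATG in their windows and are not shown. They are RefSeq sequences of build GRCm38.p6, another build than the mm9 the authors used, from 150 bases before to 30 bases after an annotated start. Capitals mark GGAATG or its reverse complement CATTCC, the core motif of the TEAD factors that YAP binds. Cldn10 has 2 annotated starts, which give the a and b types of its transcript, and the deposited table holds a single value for both.
Cldn2, chrX:139800658-139800837, plus strand: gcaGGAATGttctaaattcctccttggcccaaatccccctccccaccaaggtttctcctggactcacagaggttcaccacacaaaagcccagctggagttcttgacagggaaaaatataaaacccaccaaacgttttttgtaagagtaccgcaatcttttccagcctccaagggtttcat
Cldn10, start 1, chr14:118787721-118787900, plus strand: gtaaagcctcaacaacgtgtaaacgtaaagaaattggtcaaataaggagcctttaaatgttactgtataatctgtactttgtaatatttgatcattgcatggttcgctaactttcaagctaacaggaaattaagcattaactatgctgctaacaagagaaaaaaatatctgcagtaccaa
Cldn10, start 2, chr14:118854800-118854979, plus strand: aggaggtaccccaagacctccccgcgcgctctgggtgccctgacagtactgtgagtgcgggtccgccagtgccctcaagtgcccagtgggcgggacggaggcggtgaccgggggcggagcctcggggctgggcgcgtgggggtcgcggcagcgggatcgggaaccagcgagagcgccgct
Cldn4, chr5:134946905-134947084, minus strand: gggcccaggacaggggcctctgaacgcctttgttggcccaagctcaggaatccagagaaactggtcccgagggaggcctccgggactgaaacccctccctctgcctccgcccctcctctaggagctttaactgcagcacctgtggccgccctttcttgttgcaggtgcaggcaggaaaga
Cldn7, start 1, chr11:69964629-69964808, plus strand: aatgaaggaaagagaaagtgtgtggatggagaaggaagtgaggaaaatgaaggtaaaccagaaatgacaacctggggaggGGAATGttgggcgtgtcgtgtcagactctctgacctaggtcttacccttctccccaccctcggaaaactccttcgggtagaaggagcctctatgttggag
Cldn6, chr17:23679215-23679394, plus strand: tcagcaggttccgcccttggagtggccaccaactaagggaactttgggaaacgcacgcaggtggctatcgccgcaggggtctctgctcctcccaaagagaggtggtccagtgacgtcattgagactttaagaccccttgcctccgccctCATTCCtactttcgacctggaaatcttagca

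The stretch at Cldn10 start 1 has a GC content of 32.8% and that at start 2 one of 73.9%. The Cldn4 and Cldn10 stretches hold no GGAATG on either strand, while those of Cldn2, Cldn7 start 1 and Cldn6 hold 1 each. Another match at Cldn2, 27 bases after its start, is cut by the end of the stretch shown. The stretch at Cldn7 start 2, which is not shown, holds none. Windows of 300 bases (250 before and 50 after each start) were found for 32 of the 42 genes, 47 windows in all. GGAATG occurred in 6 of them (12.8%), against 14.7% of 32851 windows of all genes. The STAT motif TTCNNNGAA occurred in 4 member windows (8.5%, against 8.3% of all windows) and the grainyhead motif AACCNGTT in 2 (4.3%, against 2.1%), each searched on both strands. All 3 shares are low counts, and a match is a description of letters only. GGAATG occurred in a window of 3 of 16 matched genes that rose, 1 of 5 that fell, 1 of 4 tested genes that were not called and 1 of 7 untested genes.

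In the comparison of Sav1-null with wild-type cortex most tight junction genes changed. Cldn2 of the proximal tubule and Cldn10 of the proximal tubule and thick ascending limb fell (Cldn2 not with quantile normalization, where it was at 0.11 on the log2 scale). Cldn16 and Cldn19 of the thick ascending limb rose, as did the 4 claudins of the distal tubule and collecting duct. Of the 42 genes, 33 averaged at least 10 across all 8 libraries and were tested. A gene was called at a limma adjusted p under 0.05, and 20 of the 33 (60.6%) were called higher in the Sav1-null libraries, against 43.9% of all 13677 tested genes. Another 7 (21.2%) were called lower, against 25.2% of all tested genes, and 6 were not called. Most of all tested genes were thus called, and every count of genes or markers below is to be read beside these shares. The median log2 fold change was 0.85 over the 33, beside 0.23 over all tested genes. Split by kind, the 17 tested claudins had 9 called higher, 5 lower and a median of 1.22, and the 16 listed genes 11 higher, 2 lower and a median of 0.80. Cldn18, Cldn23 and Jam2 passed the filter on low values only through the group in which they are high. These 3 count among the 33, Cldn23 and Jam2 with the genes called higher and Cldn18 with those called lower. In bulk cortex, fewer cells of a type and less RNA per cell cannot be told apart.

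**Figure D1:**
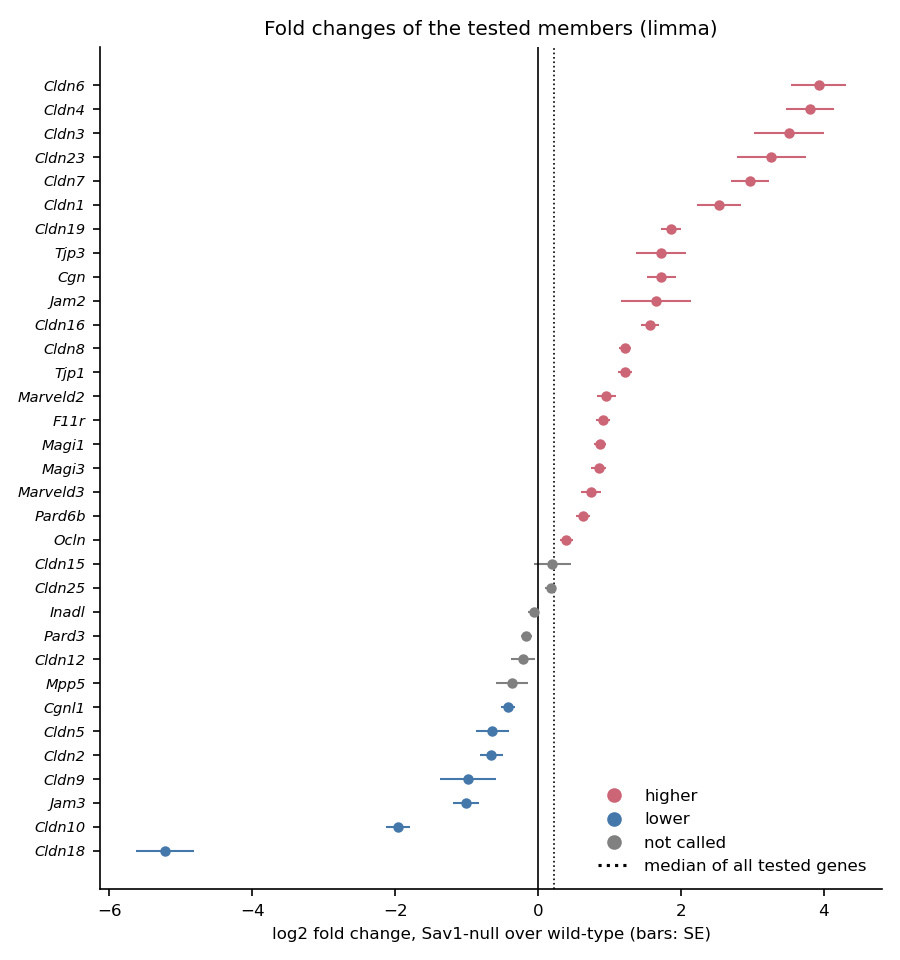
Log2 fold change (Sav1-null over wild-type, limma, x axis) of each of the 33 tested genes, in order of size; points are estimates, bars are 1 SE, colour gives the call, and the dotted line is the median of all tested genes at 0.23. Genes called higher lie to the right from Ocln at 0.40 to Cldn6 at 3.93, and genes called lower reach from Cgnl1 at -0.42 to Cldn18 at -5.22.

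Of the 2 tested claudins grouped here under the proximal tubule, Cldn2 fell and Cldn12 did not pass the test. Cldn2, which forms the cation and water pore of the proximal tubule, was at 16715, 16292, 16611 and 16098 in the wild-type libraries and at 12425, 10271, 12652 and 7493 in the Sav1-null libraries. The groups did not overlap, and the gene lies on the X chromosome. Cldn2 fell 1.57-fold, from 16429 ± 285 to 10710 ± 2398 (SD, n = 4), with a log2 fold change of -0.65 ± 0.16 and an adjusted p of 0.00534. With equal library totals it was -0.26 (adjusted p = 0.126) and with quantile normalization 0.11 (adjusted p = 0.569), so its direction depends on the scaling. Cldn12, found with Cldn2 in the proximal tubule and linked to calcium permeability, was at 1788, 1719, 1820 and 1640 in wild-type and at 1921, 1500, 1754 and 1027 in Sav1-null cortex. These overlap, and its log2 fold change of -0.21 ± 0.17 was not called (adjusted p = 0.311; -0.43 and 0.0443 after median-of-ratios rescaling). Cldn17, an anion channel of the proximal tubule, had 2 reads over the 4 wild-type and 2 over the 4 Sav1-null libraries.

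Cldn10, whose a type is an anion pore of the proximal tubule and whose b type is a cation pore of the thick ascending limb, fell more than Cldn2. It was at 6728, 6449, 5664 and 5787 in the wild-type libraries and at 2114, 1310, 1801 and 1227 in the Sav1-null libraries, a wide gap with no overlap. Cldn10 fell 3.90-fold (log2 fold change -1.96 ± 0.17, adjusted p = 9.44e-06), from 6157 ± 514 to 1613 ± 419. Within a library, Cldn10 was 0.341 to 0.403 of Cldn2 in wild-type and 0.128 to 0.170 in Sav1-null cortex. Markers of the same segment were lower as well: of 10 proximal tubule markers 9 fell and none rose, with a median log2 fold change of -2.03 and a summed level of 318804 to 361603 in wild-type and 38570 to 98860 in Sav1-null libraries. Relative to Lrp2, the endocytic receptor megalin of the same cells, Cldn10 stood at 0.164 to 0.171 in wild-type and at 0.124 to 0.234 in Sav1-null libraries, which overlap. Cldn2 relative to Lrp2 was 0.422 to 0.484 in wild-type and 0.867 to 1.43 in Sav1-null libraries. Cldn2 relative to Slc34a1, the phosphate transporter of the brush border, was 0.101 to 0.121 and 0.446 to 0.714. Cldn2 was thus lower in level and higher in proportion to both markers, in every Sav1-null library. Both markers come from the list of 10, whose log2 fold changes ran from -0.72 (Slc5a12, not called) and -0.95 (Cubn) to -3.23 (Slc5a2). A ratio to a marker therefore depends on the marker chosen, for Cldn10 as for Cldn2, and the rest of the list was not used for ratios. The part of the markers in the claudin values was not tested.

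**Figure D2:**
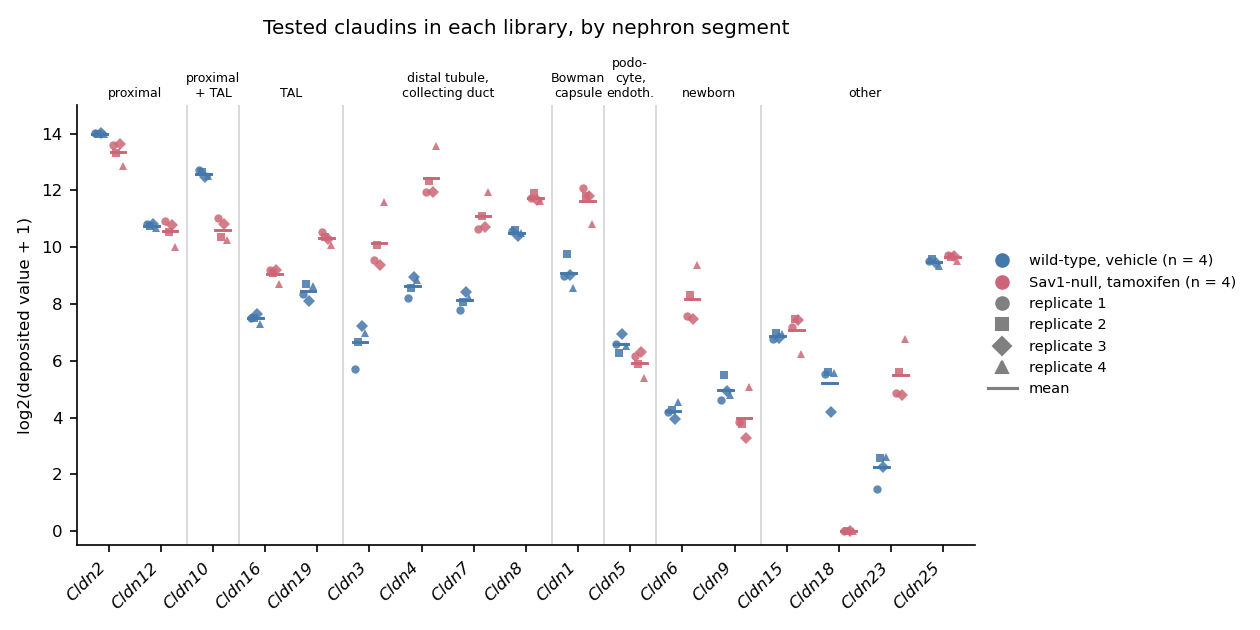
Log2(deposited value + 1) (y axis) of the 17 tested claudins in each library, grouped by the segment or structure each is known from; TAL is the thick ascending limb, colour is the group, marker shape the replicate and the horizontal line the mean of the log2 values (n = 4). Sav1-null points lie below wild-type for Cldn2 and Cldn10 and above it for Cldn16, Cldn19, Cldn3, Cldn4, Cldn7, Cldn8, Cldn1 and Cldn6, and the Sav1-null triangle (replicate 4) stands apart for many.

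Cldn16 and Cldn19 of the thick ascending limb rose, unlike Cldn10, whose b type belongs to the same segment and is not separated from the a type in the table. Cldn16, which with Cldn19 makes up the channel that reclaims magnesium and calcium, was at 182, 179, 200 and 157 in wild-type and at 585, 548, 593 and 419 in Sav1-null libraries. It rose 2.96-fold (log2 fold change 1.57 ± 0.13, adjusted p = 9.89e-06), from 180 ± 17.8 to 536 ± 80.3. Cldn19 was at 327, 412, 278 and 396 in wild-type and at 1478, 1307, 1259 and 1074 in Sav1-null libraries, and rose 3.64-fold (1.86 ± 0.14, adjusted p = 5.93e-06). Neither overlapped between groups, and the ratio of Cldn19 to Cldn16, at 1.39 to 2.53 in wild-type and 2.13 to 2.56 in Sav1-null libraries, did. Cldn14, the inhibitory partner of Cldn16, lay under the filter with 2, 1, 4 and 1 reads in wild-type and 15, 14, 8 and 11 in Sav1-null libraries. In the fit without the filter its log2 fold change was 2.08 (adjusted p = 0.00100). Of 7 other markers of the thick ascending limb 3 rose and none fell, with a median log2 fold change of 0.24. Umod, the segment's main secreted protein uromodulin, was at 49308 and 45895 on average (log2 fold change -0.17 ± 0.25, adjusted p = 0.556). Cldn16 relative to Umod was 0.00327 to 0.00401 in wild-type and 0.00990 to 0.0166 in Sav1-null libraries, and Cldn19 relative to Umod 0.00556 to 0.00834 and 0.0210 to 0.0425.

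The claudins of the distal tubule and collecting duct all rose, 4 of 4, against 43.9% of all tested genes called higher. Their median log2 fold change was 3.24. Cldn4, a sealing claudin that also forms a chloride path in the collecting duct with Cldn8, was at 298, 374, 495 and 460 in wild-type and at 3946, 5204, 3957 and 12031 in Sav1-null libraries. Every Sav1-null library lay far above every wild-type library, and Sav1-null replicate 4 far above the other 3. Cldn4 rose 13.98-fold (3.81 ± 0.34, adjusted p = 1.17e-05), from 407 ± 88.3 to 6285 ± 3877, or to 4369 without Sav1-null replicate 4. Cldn3, its close sealing relative, was at 51.7, 99.7, 150 and 125 in wild-type and at 752, 1085, 665 and 3128 in Sav1-null libraries. It rose 11.4-fold (3.51 ± 0.49, adjusted p = 0.000184), from 107 ± 42.0 to 1408 ± 1161, and its Sav1-null mean was 834 without replicate 4. The genes for Cldn3 and Cldn4 are neighbours on chromosome 5, 39.3 kb apart in GRCm38.p6 with no protein-coding gene between. Cldn7, a basolateral claudin of the collecting duct, was at 220, 270, 342 and 296 in wild-type and at 1588, 2188, 1679 and 3948 in Sav1-null libraries. It rose 7.84-fold (2.97 ± 0.27, adjusted p = 1.37e-05). Cldn8, a cation barrier of the distal nephron, was at 1513, 1551, 1359 and 1435 in wild-type and at 3376, 3818, 3241 and 3186 in Sav1-null libraries. Cldn8 had the smallest and most even rise of the 4, 2.32-fold (1.22 ± 0.08, adjusted p = 2.7e-06).

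Markers of the collecting duct moved with these claudins. Of 9 principal cell markers 8 rose and none fell (median log2 fold change 1.74), against 43.9% and 25.2% of all tested genes. Their summed level was 10776 to 13833 in wild-type and 24765 to 43152 in Sav1-null libraries. Relative to Scnn1g, a subunit of the epithelial sodium channel of principal cells, Cldn8 was lower in the Sav1-null libraries (0.640 to 1.02) than in the wild-type libraries (1.12 to 1.31). Cldn4, Cldn7 and Cldn3 were higher relative to Scnn1g. Cldn4 stood at 0.248 to 0.428 of Scnn1g in wild-type and at 1.06 to 2.42 in Sav1-null libraries. Cldn7 stood at 0.183 to 0.296 and 0.451 to 0.793, and Cldn3 at 0.0429 to 0.130 and 0.179 to 0.628. None of these ratios overlapped between groups, so Cldn8 moved less than Scnn1g and the other 3 moved more. The 9 principal cell markers had log2 fold changes from 0.27 (Aqp3, not called) to 2.66 (Aqp4). Cldn8, at 1.22, lay within this range, so its ratio depends on the marker chosen, while Cldn3, Cldn4 and Cldn7 lay above the range. Cldn7, at 2.97, lay closest to Aqp4. Sav1-null replicate 4 was the highest of its group for Cldn7 (3948) and the lowest for Aqp4 (243, against 411 to 517). The place of Cldn7 above all markers therefore rests on that library. Of 6 intercalated cell markers 4 rose and 1 fell, and of 6 distal convoluted tubule markers 2 fell and none rose. All 7 markers of injured tubule epithelium rose as well (median log2 fold change 4.63, summed level 2788 to 5272 and 37453 to 74283). Within the wild-type group replicates 2 and 3 were highest for Havcr1, Lcn2, Vcam1 and Cd44, but not for Krt8, Krt18 and Krt19. Wild-type Havcr1 was at 23.6, 1099, 665 and 15.5 and Lcn2 at 16.3, 156, 211 and 7.22. Of 7 urothelial markers of the renal pelvis 1 was high enough to test, Trp63 (log2 fold change 1.69, adjusted p = 0.0140), and it rose. The summed level of the list was 5.15 to 36.3 in wild-type and 43.7 to 76.8 in Sav1-null libraries. Among the uroplakin genes, Upk3b was at 0 in every wild-type library and at 4.74 to 30.5 in the Sav1-null libraries, and Upk1a averaged 4.73 and 11.9. Upk2 averaged 0 and 0.934, while Upk1b and Upk3a averaged 0.705 and 0.466 in wild-type and were at 0 in every Sav1-null library. All 5 tested leukocyte markers rose (median 3.30, summed level of the list 81.4 to 205 and 949 to 1628). Among them Cd3e averaged only 2.92 in the wild-type group. Cd3e passed the filter on low values only through its Sav1-null mean of 20.3. The part of principal cell, urothelial, leukocyte and injury transcripts in the claudin values was not tested.

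**Figure D3:**
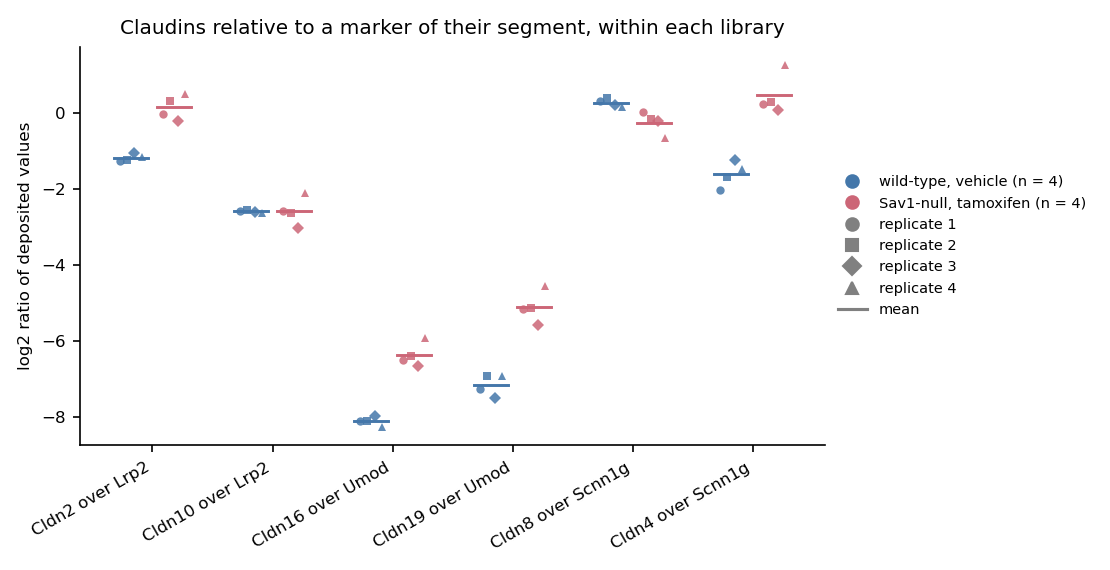
Log2 of the ratio of a claudin to a marker of its segment within each library (y axis) for 6 pairs; colour is the group, marker shape the replicate and the line the mean of the log2 ratios (n = 4). Ratios to Lrp2, Umod and Scnn1g are higher in the Sav1-null libraries for Cldn2, Cldn16, Cldn19 and Cldn4, lower for Cldn8 and overlapping for Cldn10.

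The order of the claudins by level differed between the groups. Per kb of transcript, on the deposited scale, Cldn2 (5397) and Cldn10 (2893) led the wild-type claudins, followed by Cldn8 (622), Cldn12 (464), Cldn4 (224), Cldn7 (211), Cldn1 (175) and Cldn16 (153). In Sav1-null cortex Cldn2 (3518) and Cldn4 (3461) came first, followed by Cldn7 (1761), Cldn8 (1445), Cldn3 (1118), Cldn1 (1024) and Cldn10 (758). Part of this order rested on Sav1-null replicate 4: without it the levels per kb were 3871 for Cldn2, 2406 for Cldn4, 1476 for Cldn8, 1362 for Cldn7, 1182 for Cldn1, 818 for Cldn10 and 662 for Cldn3. Cldn8 then stood above Cldn7, and Cldn3 below Cldn10. Lengths are those of the longest protein-coding transcript in the annotation of the other build, so levels between genes are approximate. As a ratio of deposited values, not per length, Cldn4 relative to Cldn2, the sealing claudin to the pore-former, was 0.0179 to 0.0298 in wild-type and 0.313 to 1.61 in Sav1-null libraries. The highest ratio was that of Sav1-null replicate 4, and the groups did not overlap.

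Claudins of other structures of the kidney went both ways. Cldn1, a barrier claudin of the parietal epithelium of the Bowman capsule, was at 511, 864, 516 and 381 in wild-type and at 4364, 3608, 3543 and 1788 in Sav1-null libraries. It rose 5.81-fold (2.54 ± 0.31, adjusted p = 7.06e-05), and Sav1-null replicate 4, the highest library for Cldn4, was the lowest of its group here. Cldn5, the barrier claudin of endothelium that podocytes also carry, was at 94.3, 76.2, 122 and 90.7 in wild-type and at 70.3, 57.7, 77.4 and 41.3 in Sav1-null libraries. It fell 1.56-fold (-0.64 ± 0.23, adjusted p = 0.0310) with overlapping groups. The Cldn5 call was lost without wild-type replicate 1 (adjusted p = 0.0620), 3 (0.0878) or 4 (0.0544) and without Sav1-null replicate 2 (0.0679) or 4 (0.0521). Relative to Pecam1, an endothelial adhesion protein, Cldn5 was 0.160 to 0.224 and 0.109 to 0.194, which overlap. Of 5 endothelial markers 1 fell and none rose, and of 5 podocyte markers 3 fell and 1 rose.

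Cldn6, a claudin of embryonic epithelia and of the newborn nephron, had the largest log2 fold change among the 20 genes called higher. It was at 17.2, 18.4, 14.4 and 22.7 in wild-type and at 188, 317, 175 and 662 in Sav1-null libraries. Cldn6 rose 15.3-fold (3.93 ± 0.39, adjusted p = 2.27e-05), from 18.2 ± 3.46 to 335 ± 227, or to 226 without Sav1-null replicate 4. Cldn9, also known from the newborn kidney, was at 23.6, 44.4, 29.7 and 26.8 in wild-type and at 13.3, 12.7, 8.69 and 32.5 in Sav1-null libraries. Its fall, with a log2 fold change of -0.98 ± 0.39, was at the threshold (adjusted p = 0.0495) with overlapping groups, and the call was lost without any single library other than Sav1-null replicate 4 (adjusted p = 0.0566 to 0.128). The genes for Cldn6 and Cldn9 lie 137 bases apart on chromosome 17 in GRCm38.p6 and are close in sequence, so reads could be shared between them and both values are uncertain. Cldn13, a rodent claudin also listed for the newborn kidney, was at 0 in every library.

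Among the claudins known mainly from other organs, named here after their values were seen, Cldn18 fell and Cldn23 rose. Cldn18, a claudin of stomach and lung, had 50, 57, 18 and 45 reads in the wild-type libraries and none in any Sav1-null library. It was at least 14.8-fold lower in Sav1-null cortex, counted against 3 reads in each library (adjusted p = 6.37e-06). Cldn23 was at 1.81, 5.03, 3.83 and 5.15 in wild-type and at 28.1, 47.9, 26.9 and 108 in Sav1-null libraries, a 9.63-fold rise (3.27 ± 0.48, adjusted p = 0.000242). The Sav1-null mean of Cldn23 was 52.8, and 34.3 without replicate 4. Cldn18 and Cldn23 each passed the filter on low values only through the group in which they are high. Cldn15, a pore-forming claudin of the intestine, was at 109, 125, 112 and 123 in wild-type and at 144, 177, 173 and 73.8 in Sav1-null libraries. It was not called (0.20 ± 0.26, adjusted p = 0.517), and Sav1-null replicate 4 alone lay below the wild-type libraries: without it the log2 fold change was 0.48 (adjusted p = 0.00747). Cldn11, known from myelin and testis, had 2 reads over the wild-type and 21 over the Sav1-null libraries, a ratio of 12.9 (exact 95% interval 3.14 to 113). Cldn20, Cldn24 and Cldn27 had at most 5 reads in either group, and Cldn22 and Cldn26 none. The row named Cldn25, a symbol RefSeq lists as a synonym of both Cldnd1 and a pseudogene, was at 708 ± 51.7 and 802 ± 49.0 and was not called (0.18 ± 0.08, adjusted p = 0.0789). Its log2 fold change was 0.22 without Sav1-null replicate 4 (adjusted p = 0.0227).

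Of the 6 listed transmembrane partners of the claudins 5 rose and 1 fell, against 43.9% and 25.2% of all tested genes. Marveld2 encodes tricellulin, which seals the corners where several cells meet. It was at 387, 445, 406 and 361 in wild-type and at 673, 846, 679 and 951 in Sav1-null libraries and rose 1.95-fold (0.96 ± 0.13, adjusted p = 0.000133). Its relatives moved less: Ocln, encoding occludin, rose 1.32-fold (0.40 ± 0.09, adjusted p = 0.00254; 0.17 and 0.0879 after median-of-ratios rescaling), and Marveld3 1.69-fold (0.75 ± 0.14, adjusted p = 0.00107). The junctional adhesion molecules, immunoglobulin-like proteins at the junction, split. F11r, encoding JAM-A of epithelia, rose 1.88-fold (0.91 ± 0.10, adjusted p = 3.84e-05), from 2606 ± 142 to 4915 ± 639. Jam3, encoding JAM-C, was at 745, 682, 608 and 541 in wild-type and at 415, 329, 327 and 222 in Sav1-null libraries, with no overlap. Jam3 fell 2.02-fold (-1.01 ± 0.18, adjusted p = 0.000882). Jam2, encoding JAM-B of endothelium, was low, at 16.3, 7.54, 8.61 and 5.15 in wild-type and 44.5, 42.0, 35.6 and 10.8 in Sav1-null libraries. It was called higher (1.65 ± 0.49, adjusted p = 0.0141) although Sav1-null replicate 4 lay among the wild-type values. Jam2 too passed the filter on low values only through the group in which it is high. The Jam2 call was lost with quantile normalization (0.46, adjusted p = 0.366) and without wild-type replicates 2 and 3 together (1.55, adjusted p = 0.0848).

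In the cytoplasmic plaque 5 of 6 listed genes rose and 1 fell, against 43.9% and 25.2% of all tested genes. Tjp1, encoding the scaffold ZO-1, was at 689, 673, 606 and 563 in wild-type and at 1576, 1481, 1556 and 1295 in Sav1-null libraries. It rose 2.33-fold (1.22 ± 0.10, adjusted p = 6.01e-06), with little spread in either group. Tjp3, encoding ZO-3, was at 179, 152, 252 and 247 in wild-type and at 475, 700, 446 and 1413 in Sav1-null libraries. It rose 3.32-fold (1.73 ± 0.35, adjusted p = 0.00163), again with Sav1-null replicate 4 highest. Cgn, encoding cingulin, which ties the plaque to actomyosin, was at 393, 444, 335 and 308 in wild-type and at 998, 1236, 999 and 1789 in Sav1-null libraries, and rose 3.32-fold (1.73 ± 0.20, adjusted p = 4.83e-05). Its paralog Cgnl1, encoding paracingulin, went the other way: it fell 1.34-fold (-0.42 ± 0.10, adjusted p = 0.00498), from 9011 in wild-type to 6754 on average. The direction of Cgnl1 depends on the scaling, since its log2 fold change was -0.04 with equal library totals (adjusted p = 0.730) and 0.16 with quantile normalization (adjusted p = 0.175). The scaffold genes Magi1 and Magi3 rose 1.83-fold and 1.80-fold (adjusted p = 3.26e-05 and 6.45e-05).

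Of the 4 listed polarity genes 1 was called. Pard6b, encoding a PAR6 adaptor of atypical protein kinase C, was at 970, 855, 945 and 791 in wild-type and at 1377, 1296, 1279 and 1571 in Sav1-null libraries and rose 1.55-fold (0.63 ± 0.10, adjusted p = 0.000305). Pard3 (-0.16, adjusted p = 0.0879), Mpp5, encoding PALS1 (-0.36, adjusted p = 0.162), and Inadl, encoding PATJ (-0.06, adjusted p = 0.535), did not pass the test as deposited, and their groups overlap. All 3 were lower and called after median-of-ratios rescaling, at -0.38, -0.59 and -0.29 (adjusted p = 0.00174, 0.0315 and 0.0136). With equal library totals Pard3 and Inadl were higher and called, at 0.23 and 0.32 (adjusted p = 0.0309 and 0.00674). Pard3 was also called without Sav1-null replicate 4 (-0.20, adjusted p = 0.0177).

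**Figure D4:**
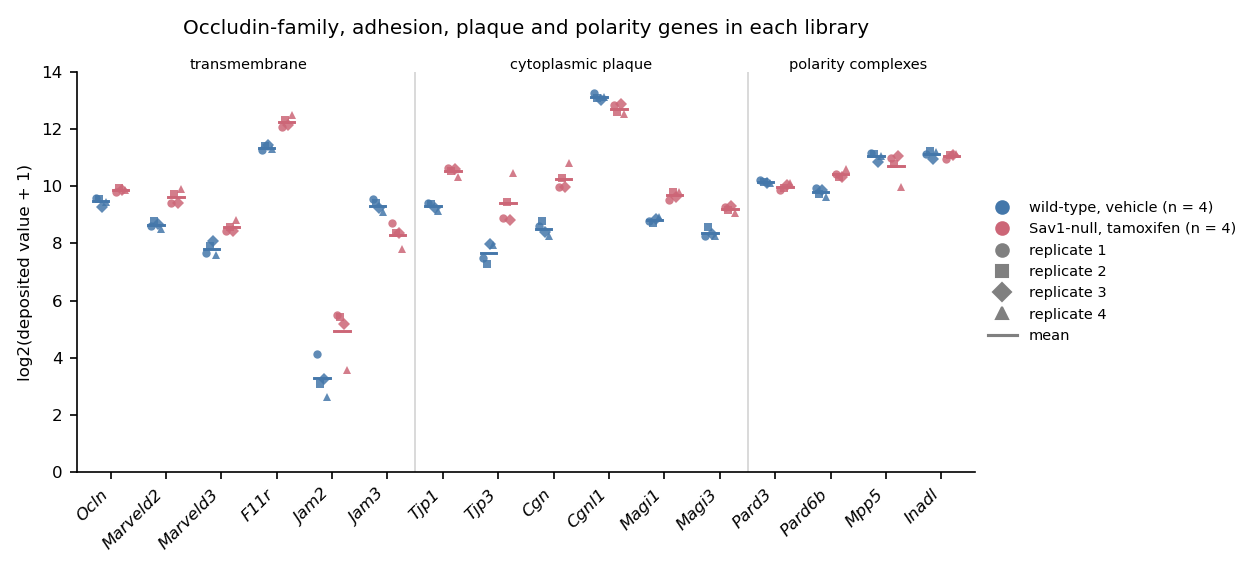
Log2(deposited value + 1) (y axis) of the 16 listed junction genes in each library, by place in the junction; colour is the group, marker shape the replicate and the line the mean of the log2 values (n = 4). The groups are apart for most transmembrane and plaque genes, Jam3 and Cgnl1 are lower in the Sav1-null libraries, and Pard3, Mpp5 and Inadl overlap.

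A further list of 35 junction genes that are not among the 42 gave 33 tested genes. Of these 21 rose (63.6%, against 43.9% of all tested genes), 2 fell (6.1%, against 25.2%) and 10 were not called. Their median log2 fold change was 0.59, beside 0.23 over all tested genes. Epcam, encoding the epithelial adhesion molecule EpCAM, which stabilises claudin-7, rose 5.15-fold, from 853 ± 41.7 to 4483 ± 1101 (2.36, adjusted p = 2.18e-06). Cxadr, encoding an adhesion receptor of the junction, rose 3.38-fold (1.76, adjusted p = 2.1e-06). The 2 that fell were Ildr2, of the angulin family of tricellular proteins (3.68-fold, adjusted p = 3.72e-05), and Prkcz, the atypical protein kinase C zeta of the PAR complex (2.14-fold, adjusted p = 3.96e-06).

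Sav1-null replicate 4 moved with the GC content of these transcripts. It was the highest library of its group for 14 of the 33 tested genes (11 of them called higher) and the lowest for 16, against 38.4% and 42.8% of all tested genes. Its difference from the mean of the other 3 Sav1-null libraries, on the log2(value + 1) scale, had a Spearman correlation with transcript GC content of 0.64 over the 32 genes with a value and of 0.53 over 13453 tested genes. Genes are not independent, and all points share the same libraries. Among the 1346 tested genes with the highest GC content (58.1% and above) the median difference was 0.45, and among the 1346 with the lowest (42.0% and below) it was -0.48. Cldn3 (GC content 62.7%) was 1.94 higher in replicate 4 and Tjp3 (60.7%) 1.42, which is past the median of those 1346 GC-rich genes. Cldn4 (56.8%) at 1.47 and Cldn7 (57.0%) at 1.13 were past it too, with a GC content below 58.1%. So were Cldn23 (54.8%) at 1.68, Cldn6 (54.4%) at 1.60 and Cldn9 (56.6%) at 1.44. Cldn1 (42.3%) was at -1.09 and Mpp5 (39.5%) at -0.96, while Cldn5 (60.5%) at -0.70 and Cldn15 (54.1%) at -1.14 went against the trend. The log2 fold changes between groups had a Spearman correlation with GC content of 0.32 over the 32 genes and 0.05 over all. Replicate 4 was also at an end of the Sav1-null range in the summed level of every cell type marker list. It was lowest for proximal tubule (38570), thick ascending limb (46316), distal convoluted tubule (24193), podocyte (1568), endothelial (735) and leukocyte (949) markers. It was highest for principal cell (43152), intercalated cell (11987), urothelial (76.8) and injury (74283) markers. The parts of GC content and of these marker transcripts in the values of replicate 4 were not tested. Cldn3, Cldn4, Cldn6, Cldn7, Tjp3 and Cgn remained called higher without that library.

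**Figure D5:**
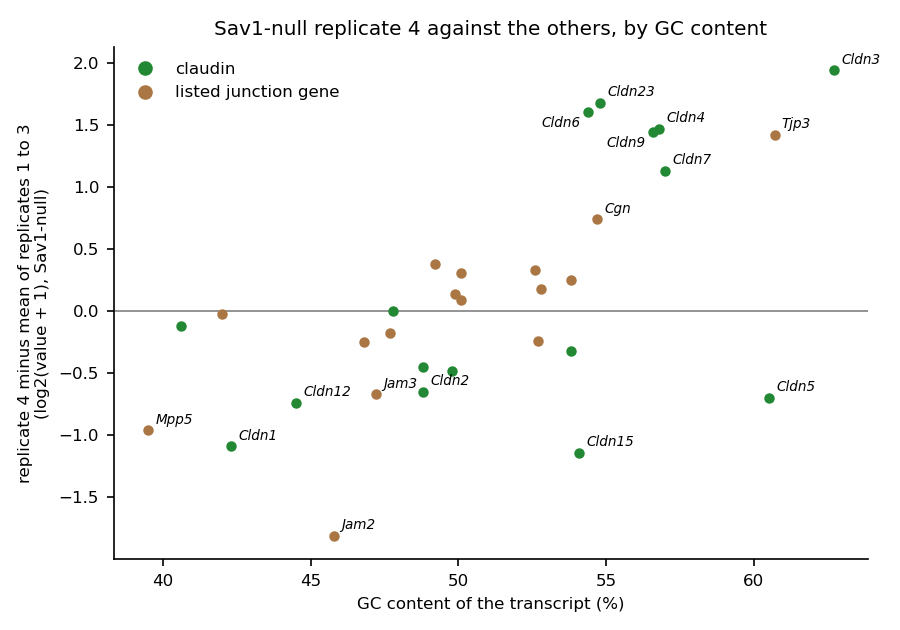
Difference of Sav1-null replicate 4 from the mean of Sav1-null replicates 1 to 3 on the log2(value + 1) scale (y axis) against the GC content of the transcript in percent (x axis) for the 32 tested genes with a GC value; colour separates claudins from listed junction genes. The points rise with GC content (Spearman correlation 0.64), from Mpp5 at -0.96 to Cldn3 at 1.94, with Cldn5 and Cldn15 below the rest at their GC content.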

How the data were processed

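The authors deposited 1 table of normalized expression values, a signal per gene and library; the submitters' processing notes name RSEM, SAMtools, Picard 1.64 and genome build mm9, and per the labels' protocols the libraries were stranded mRNA. The aligner, annotation and strand setting were not given in the sources used here. From 92.7% to 93.3% of values below 400 were whole multiples of 1 read to within 0.02 read, too few for a count model; 3 reads correspond to 2.34 to 3.09. Groups came from sample titles. Genes with a mean of at least 10 (13677 of 21705 rows) were compared as log2(value + 1) with limma 3.58.1 in R 4.3.3 (intensity trend), which was tested on simulated data. P-values were adjusted by Benjamini-Hochberg over all tested genes; log2 fold changes (Sav1-null over wild-type) understate changes of low genes, and fold values are their antilogs. The members and gene lists were chosen with earlier results of these data known. Values per library are given for kidney-segment claudins with a mean of at least 10 and up to 3 called genes of largest change per junction group. One gene that this rule names is not reported here. GC content, lengths and names came from GRCm38, since mm9 was not used here. Intervals and lower bounds cover counting error only. Alternatives were pseudocounts of 0.5 and 10, no filter, a mean of at least 50, median-of-ratios, quantile and equal-total scaling, no trend, a replicate block, leaving out each library, and leaving out both wild-type libraries with the highest Havcr1 (replicates 2 and 3).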

Additional observations from a re-analysis of the deposited data

Results flagged for a closer look

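In 66 sets of 4 values (33 genes in both groups) 3 held a library far from the others by the Dixon criterion, which chance meets in about 1 set in 20. Cldn3 in Sav1-null replicate 4 was at 3128, with a gap of 0.830 of the group's range. Cldn4 in Sav1-null replicate 4 was at 12031 (gap 0.844). Cldn18 in wild-type replicate 3 was at 17.2, below the other wild-type libraries (gap 0.921), while the Sav1-null libraries were all at 0.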

How the results depend on the processing

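The 20 members called higher were 20 with the replicate block and 22 without Sav1-null replicate 4, and no alternative moved a count of genes called higher by over 1.5 times. Counts of genes called lower depended on the scaling. The 7 members called lower became 3 with equal library totals and 11 after median-of-ratios rescaling. The 5 claudins called lower became 3 with a mean of at least 50 and 2 with equal totals, 3 without wild-type replicates 2 and 3 together, and 3 to 4 when 1 library was left out. The 2 listed junction genes called lower became 5 after median-of-ratios rescaling and 1 with quantile normalization or equal totals. The 2 further junction genes called lower became 4 after median-of-ratios rescaling and 8 with quantile normalization. Reversed log2 fold changes were 0.16 for Cgnl1, 0.11 for Cldn2 and -0.62 for Pard6a with quantile normalization, and 0.32 for Inadl, 0.23 for Pard3 and 0.27 for Igsf5 with equal totals. The median over all tested genes moved by -0.23 (median-of-ratios), -0.26 (quantile) and 0.39 (equal totals), and the share of calls that are higher from 63.5% to 49.7%, 48.3% and 81.8%; beyond that the cause was not tested. Same-numbered libraries of the groups had correlations of 0.14, 0.08, -0.17 and 0.13, so the numbers do not pair them; the replicate block gave 6 members called lower, and among the members Cldn9 (adjusted p = 0.0646) lost its call. Low reads limit Cldn14, Cldn11 and the other untested claudins.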
